A study of Mus musculus with 28 samples.

Results

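The genes described here are 9 members of the transforming growth factor beta (TGF-beta) system, out of 55416 gene identifiers in the counts of mouse tibialis anterior muscle. They are the ligands Tgfb1, Tgfb2 and Tgfb3, the latent TGF-beta binding proteins Ltbp1, Ltbp2, Ltbp3 and Ltbp4, and the matricellular genes Ccn1 and Ccn2. They were chosen by name and function, with earlier results of these data known, and each symbol matched 1 Ensembl gene in the counts of every mouse. The mice came from models of centronuclear myopathy caused by Dnm2 or Bin1, and some received tamoxifen in the diet. The paper placed them among several cohorts in a search for disease mechanisms and therapeutic targets. RNA of 28 C57BL/6N mice aged 8 weeks was sequenced, with 4 mice in each of 7 groups. The Dnm2 cohort held wild-type mice on placebo (mice 1 to 4), wild-type mice on tamoxifen, Dnm2 S619L/+ mice on placebo and Dnm2 S619L/+ mice on tamoxifen. These mutants carry a point mutation of dynamin 2 on 1 allele in all cells. The Bin1 cohort held its own wild-type mice on placebo (mice 5 to 8), Bin1 mck-/- mice on placebo and Bin1 mck-/- mice on tamoxifen, and it had no wild-type mice on tamoxifen. In these knockouts Bin1 is deleted in muscle, so that other cells of the tissue keep the gene. The sex of the mice and the dose and length of the diet were not in the labels.

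TGF-beta is secreted as a latent complex, in which the ligand is held by its propeptide and tethered to microfibrils of the extracellular matrix by a latent binding protein. Integrins, proteases and mechanical pull release it, after which it signals through the receptors TGFBR2 and TGFBR1 to the SMAD transcription factors and drives matrix production by fibroblasts. Ccn1 and Ccn2, the latter long known as connective tissue growth factor, are immediate targets of SMAD and of YAP/TAZ-TEAD transcription and are widely read as markers of fibrogenic and mechanical signaling in injured or dystrophic muscle.

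Library preparation differed between the cohorts: the Dnm2 cohort used 300 ng RNA per library and 2 min fragmentation, the Bin1 cohort 350 ng and 8 min. Hence mouse model and library protocol cannot be told apart when levels are set side by side. Reads counted on genes ranged from 15586333 to 109710886 per mouse in placebo wild types of the Dnm2 cohort, from 20989876 to 46556589 in the other 12 mice of that cohort, and from 24671835 to 35136327 in the Bin1 cohort. Levels are given as CPM, counts scaled to a common library size that the TMM method corrects for composition. All 9 genes passed the filter on low counts in both cohorts. A gene is said to rise or fall where edgeR's quasi-likelihood test gave an adjusted p under 0.05 over all genes tested, and log2 fold changes are given with their standard error (SE).

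The labels were checked first. Bin1 measured 521 to 556 CPM in placebo wild types of its cohort, 51.6 to 62.1 CPM in placebo knockouts and 36.1 to 49.5 CPM in tamoxifen knockouts, a log2 fold change of -3.26 in placebo mice (SE 0.13, edgeR adjusted p = 7.10e-10, n = 4 and 4). Counts cannot show a point mutation, and Dnm2 had 67.6 ± 4.64 CPM in placebo mutants and 63.1 ± 1.45 CPM in placebo wild types (SD, n = 4). The muscle label held in every library, since the 5 muscle fiber markers Ckm, Acta1, Myh4, Ttn and Tnnt3 summed to between 63796 and 148509 CPM and none was at 0.

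Several libraries stood apart from their groups, and calls that turn on a single mouse are given with and without it. Among tamoxifen Dnm2 mutants, mouse 4 had 24.2 CPM of 7 summed osteoclast markers, against 244, 287 and 709 CPM in mice 1 to 3. Among tamoxifen Bin1 knockouts, mouse 2 had 176 CPM of the same markers, against 12.9, 10.2 and 3.55 CPM in mice 1, 3 and 4. The tendon markers of placebo Bin1 knockout mouse 4 summed to 1084 CPM, against 107 to 259.5 CPM in the other 3. Marker genes of bone cells thus varied between mice of the same genotype and diet. Depth also varied, most in placebo wild types of the Dnm2 cohort, where mouse 1 had 109710886 reads and mouse 3 had 15586333.

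Across the 9 genes, tamoxifen in wild-type mice gave the most calls. It raised 8 of the 9 members, where 27.7% of all 15439 genes tested in this cohort were called, and the median log2 fold change of the members was 1.57 against -0.04 for all genes. The Dnm2 mutation under placebo raised 5 members (21.9% of all genes called), with a median of 0.93 against 0.02. Tamoxifen-treated Dnm2 mutants compared with placebo wild types had 7 members higher (28.9% of all genes called), with a median of 1.35 against 0.01. All 3 comparisons share the same 4 placebo wild-type mice. Tamoxifen given to Dnm2 mutants raised 1 member, Ltbp2 (8.27% of all genes called), with a median of 0.38 against -0.03. In the Bin1 cohort the knockout raised 1 member, Ccn2 (2.61% of 14841 genes called), with a median of 0.31 against 0.01. The 388 genes called there became 18 without wild type 8 and 759 without tamoxifen knockout 2. With all mice included, edgeR called no member lower in any comparison.

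**Figure D1:**
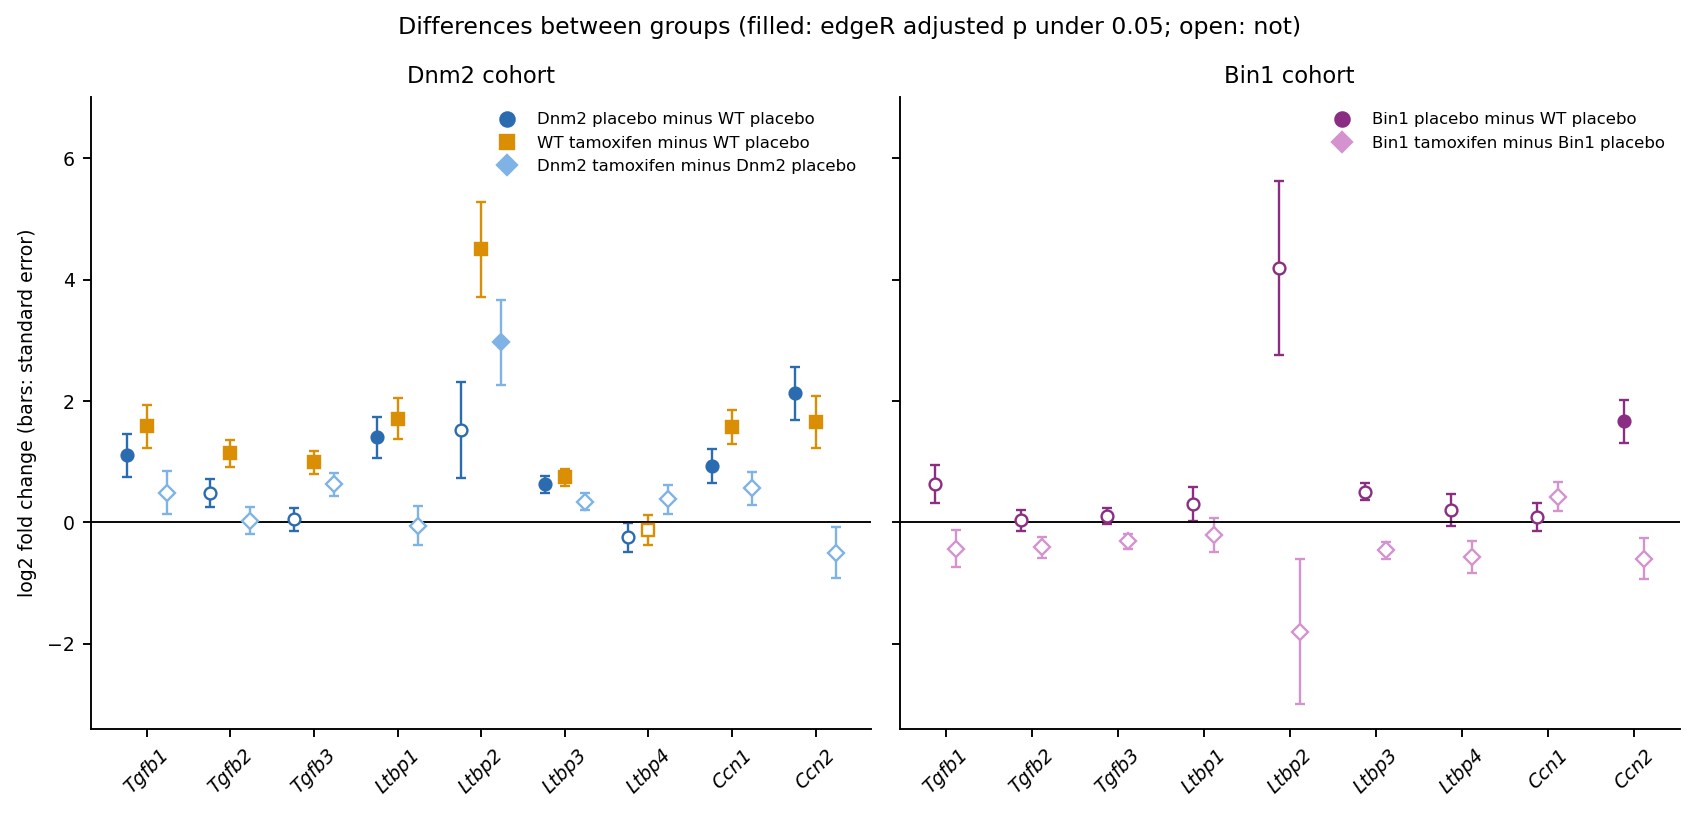
Log2 fold changes of the 9 genes, with bars of 1 standard error, in 3 comparisons of the Dnm2 cohort and 2 of the Bin1 cohort; filled symbols have an edgeR adjusted p under 0.05. In wild types on tamoxifen 8 of 9 symbols are filled, and Ltbp2 stands highest at 4.50.

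The 3 ligands differed in how they followed genotype and diet. Tgfb1 (ENSMUSG00000002603), the ligand most tied to fibrosis and inflammation, measured 7.40, 5.97, 4.51 and 10.4 CPM in placebo wild-type mice 1 to 4 of the Dnm2 cohort. Wild types on tamoxifen had 21.03, 25.6, 14.9 and 24.8 CPM, and placebo mutants had 17.8, 21.3, 9.96 and 12.9 CPM. Every tamoxifen wild type thus lay above every placebo wild type, while placebo mutant 3 lay just under placebo wild type 4. In mutants on tamoxifen the values were 21.8, 25.0, 32.4 and 8.40 CPM, with mouse 4 inside the wild-type range. The rise was 1.58 on the log2 scale in wild types on tamoxifen (SE 0.36, edgeR adjusted p = 0.00480, higher in 4 of 4 mice than any control) and 1.11 in placebo mutants (SE 0.36, edgeR adjusted p = 0.0371, 3 of 4 mice). When each of the 16 mice was omitted in turn, the call in placebo mutants was lost 6 times, without placebo wild type 1, 2 or 3 or placebo mutant 1, 2 or 4, with log2 fold changes from 0.92 to 1.18 and edgeR adjusted p from 0.0554 to 0.104 (0.00894 to 0.104 over all 16). It was also lost without a low-count filter (edgeR adjusted p = 0.108) and with a replicate block (0.0706). Tamoxifen mutants rose by 1.60 over placebo wild types (SE 0.36, edgeR adjusted p = 0.00458), and against placebo mutants the difference was 0.49 (SE 0.35, edgeR adjusted p = 0.402).

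Tgfb2 (ENSMUSG00000039239), which has roles in development and in tension-bearing tissue, measured 32.0, 23.3, 20.9 and 24.1 CPM in placebo wild types and 56.9, 70.6, 47.2 and 47.1 CPM in wild types on tamoxifen. These groups did not overlap. Placebo mutants, at 28.1 to 45.2 CPM, and tamoxifen mutants, at 21.8 to 51.6 CPM, overlapped with the placebo wild types. Tgfb2 rose by 1.14 in wild types on tamoxifen (SE 0.23, edgeR adjusted p = 0.00223), while 0.49 in placebo mutants stayed short of the threshold (SE 0.23, edgeR adjusted p = 0.130) unless scaled by library size alone (0.76, adjusted p = 0.0406). Tamoxifen mutants differed from placebo wild types by 0.51 (SE 0.23, edgeR adjusted p = 0.0980), which passed with library size alone (0.88, adjusted p = 0.0175) or without tamoxifen mutant 4 (0.69, adjusted p = 0.0135; 0.0135 to 0.351 over the 16 omissions).

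Tgfb3 (ENSMUSG00000021253), the third isoform, measured 48.3, 34.7, 40.8 and 48.2 CPM in placebo wild types and 41.2, 47.3, 46.3 and 44.0 CPM in placebo mutants. The mutants lay within the wild-type range, and their log2 difference of 0.05 had a 95% interval from -0.35 to 0.45. Wild types on tamoxifen had 85.0, 111, 65.8 and 79.9 CPM, and mutants on tamoxifen had 67.1, 82.8, 83.2 and 43.4 CPM. All tamoxifen wild types, and tamoxifen mutants 1 to 3, lay above every placebo mouse of the cohort, while tamoxifen mutant 4 did not. Tgfb3 rose by 0.99 in wild types on tamoxifen (SE 0.19, edgeR adjusted p = 0.00175). In mutants, tamoxifen gave a difference of 0.63 (SE 0.19, edgeR adjusted p = 0.0518, DESeq2 adjusted p = 0.0214), which passed by edgeR without tamoxifen mutant 4 (0.80, adjusted p = 0.00263) or without tamoxifen wild type 2 or 3 (adjusted p = 0.0421 and 0.0481; 0.00263 to 0.173 over the 16 omissions). Tamoxifen mutants rose by 0.68 over placebo wild types (SE 0.19, edgeR adjusted p = 0.0142), which was lost on omitting tamoxifen mutant 2 (0.58, adjusted p = 0.0507) or 3 (0.58, adjusted p = 0.0534; 7.33e-04 to 0.0534 over the 16 omissions).

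**Figure D2:**
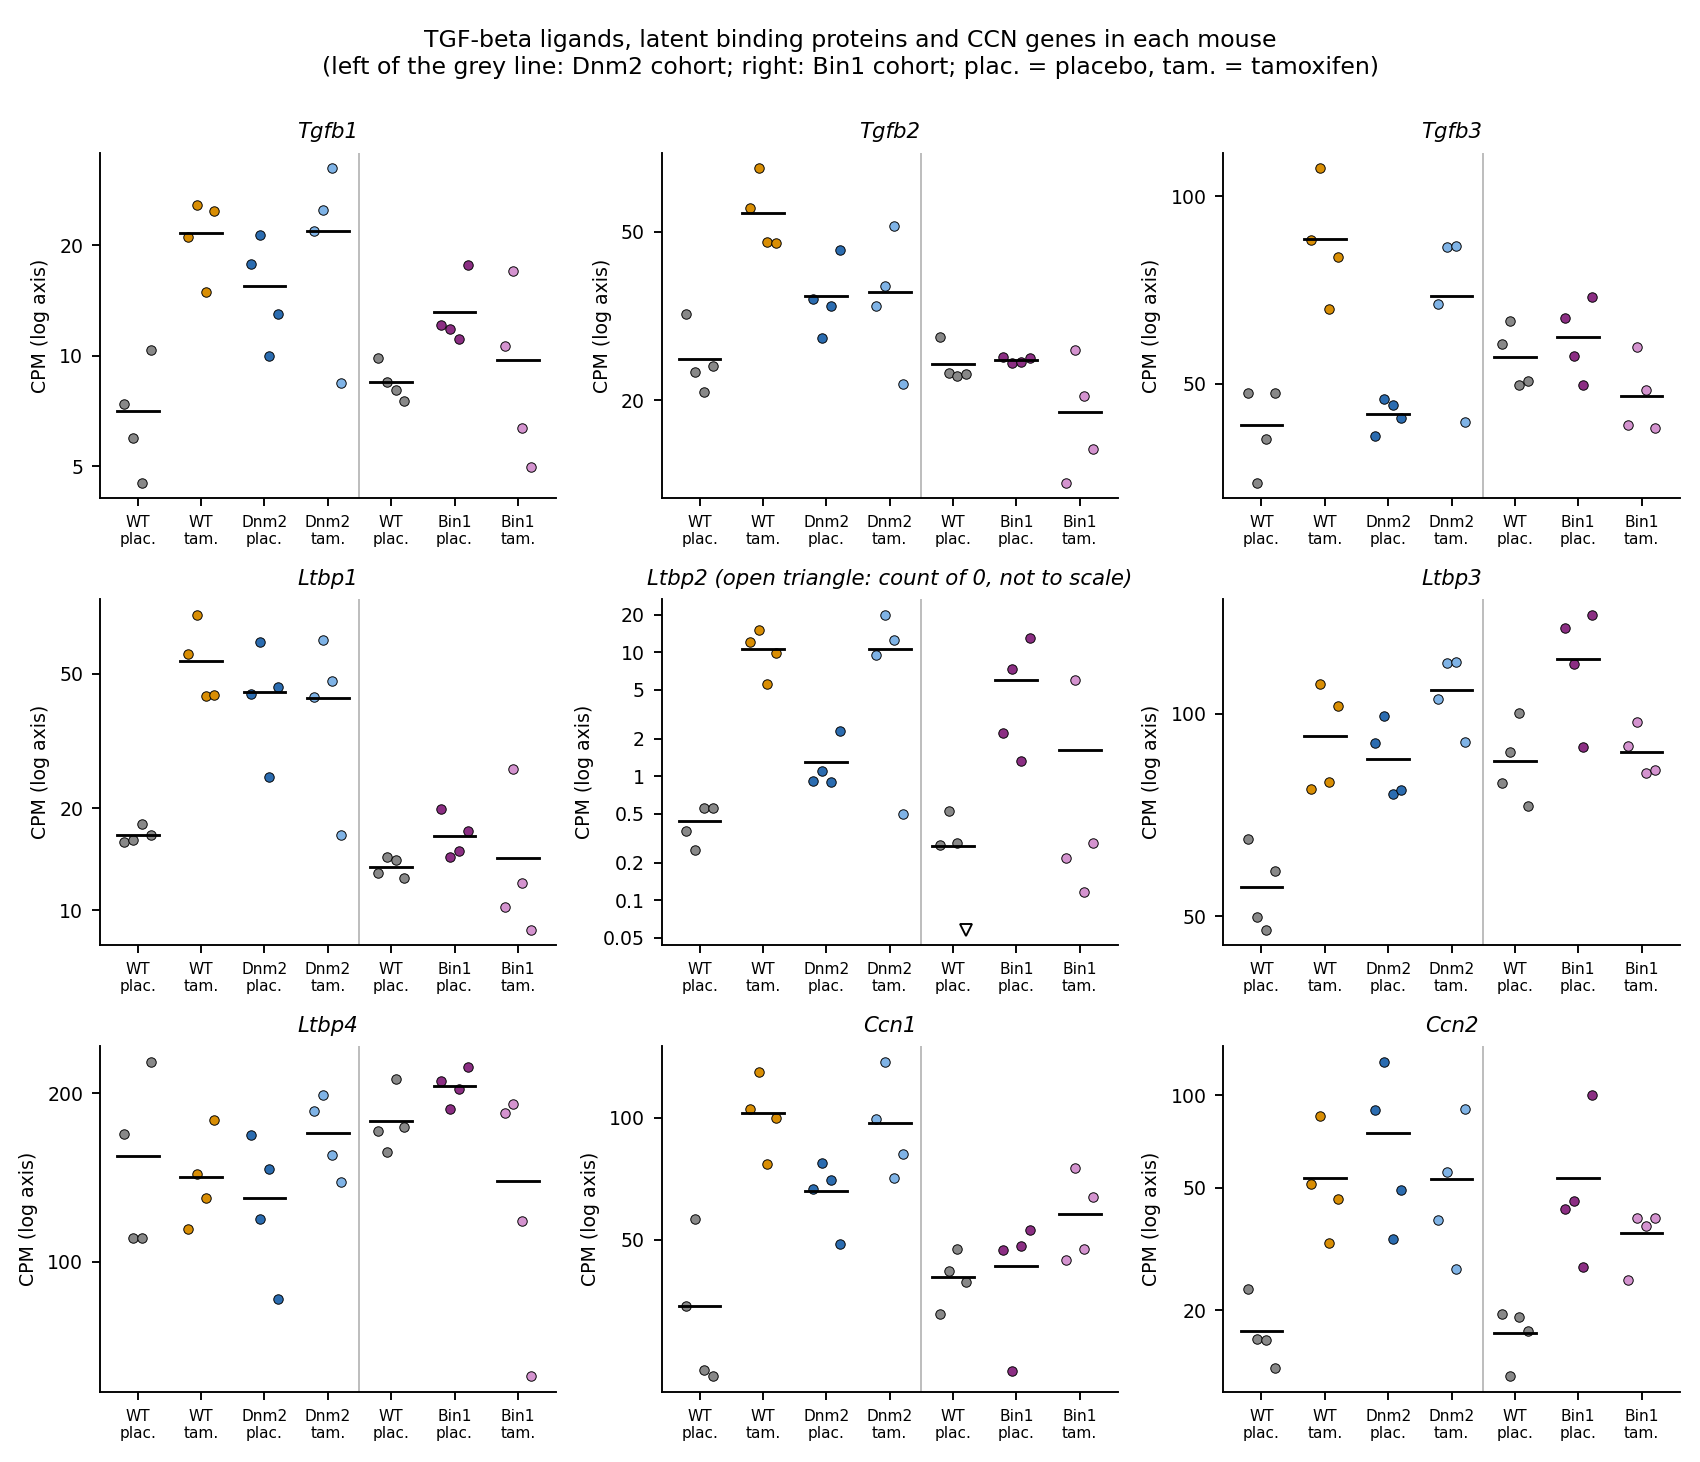
CPM on a log axis of each of the 9 genes in each mouse, with 7 groups of 4 mice on the horizontal axis, points for mice and lines for group means; the open triangle is a count of 0 and is not drawn to scale. In the panel of Ltbp2 every wild-type mouse on tamoxifen lies above every placebo wild type of the Dnm2 cohort. In the panel of Ltbp4 these 2 groups overlap.

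The latent binding proteins held the widest spread of behavior. Ltbp1 (ENSMUSG00000001870), which binds all 3 latent ligands and anchors them to fibronectin and fibrillin, was steady in placebo wild types, at 15.9, 16.1, 17.9 and 16.7 CPM. It measured 43.5, 62.2, 24.8 and 45.6 CPM in placebo mutants and 57.1, 74.5, 43.0 and 43.3 CPM in wild types on tamoxifen. Neither group overlapped with the placebo wild types. Mutants on tamoxifen had 42.7, 63.1, 47.7 and 16.6 CPM, so that mouse 4 again lay among the placebo wild types. Ltbp1 rose by 1.40 in placebo mutants (SE 0.33, edgeR adjusted p = 0.00838), by 1.71 in wild types on tamoxifen (SE 0.33, edgeR adjusted p = 0.00203) and by 1.35 in tamoxifen mutants against placebo wild types (SE 0.33, edgeR adjusted p = 0.00756). These 3 calls held whichever mouse was omitted. Within mutants, tamoxifen gave a difference of -0.05 (SE 0.32, edgeR adjusted p = 0.946), with a 95% interval from -0.74 to 0.64.

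Ltbp2 (ENSMUSG00000002020), a microfibril protein that, unlike its relatives, does not bind latent TGF-beta, had the largest fold change of the 9 genes for tamoxifen in each Dnm2 genotype. It was close to absent in placebo wild types, at 0.365, 0.255, 0.553 and 0.558 CPM, which are 7 to 36 reads per mouse. Wild types on tamoxifen had 12.0, 15.1, 5.51 and 9.84 CPM, and placebo mutants had 0.924, 1.104, 0.905 and 2.30 CPM. Mutants on tamoxifen had 9.54, 19.9 and 12.5 CPM in mice 1 to 3 and 0.494 CPM in mouse 4. Tamoxifen therefore went with higher Ltbp2 in all 4 wild types and in 3 of 4 mutants, and mouse 4 stayed at the placebo wild-type level. The rise was 4.50 in wild types (SE 0.78, edgeR adjusted p = 8.08e-04) and 2.97 in mutants (SE 0.70, edgeR adjusted p = 0.0183). The edgeR call in mutants was lost without placebo mutant 2 (2.91, adjusted p = 0.0551) or without tamoxifen mutant 2 (2.47, adjusted p = 0.0717) or 3 (2.88, adjusted p = 0.0587), and without tamoxifen mutant 4 the rise was 3.37 (adjusted p = 3.69e-05; 3.69e-05 to 0.0717 over the 16 omissions). It was also lost without a low-count filter (edgeR adjusted p = 0.0634), with only the groups compared (0.117) and with a replicate block (0.0601). The 4 placebo mutants lay above the 4 placebo wild types, by 1.52 on average, short of the threshold (SE 0.79, edgeR adjusted p = 0.146) but past it in a fit of only the groups compared (adjusted p = 0.0229) and without tamoxifen mutant 4, a mouse outside that comparison (1.52, adjusted p = 0.0136; 0.0136 to 0.365 over the 16 omissions).

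The mice also differed in markers of bone and tendon cells. The 7 osteoclast markers summed to 7.19 to 11.8 CPM in placebo wild types and 17.4 to 20.4 CPM in placebo mutants, where the sum was mostly Ctsk (means of 6.45 and 14.4 CPM) and the 1 marker of 7 that was called, Calcr, fell by 3.40. Wild types on tamoxifen had 939, 1492, 257 and 530 CPM. With tamoxifen, 6 of the 7 rose in wild types and 5 of 7 in mutants, and the most abundant was Ctsk, at a mean of 356 CPM in wild types on tamoxifen. The 10 osteoblast and osteocyte markers summed to 30.8 to 58.3 CPM in placebo wild types, 731, 963, 316 and 395 CPM in wild types on tamoxifen, 14.0 to 20.3 CPM in placebo mutants and 198, 435, 572 and 49.2 CPM in mutants on tamoxifen. Of the 8 that were tested, 7 rose with tamoxifen in each genotype. Of all genes, 27.7% were called with tamoxifen in wild types, 8.27% with tamoxifen in mutants and 21.9% in placebo mutants. Ibsp was the most abundant under tamoxifen, with a mean of 375 CPM in wild types, and Bglap2 and Mepe were at 0 in every placebo mutant. The 7 tendon markers, led by Fmod under tamoxifen, had a mean of 112 CPM in placebo wild types, 1197 CPM in wild types on tamoxifen, 363 CPM in placebo mutants and 580 CPM in mutants on tamoxifen, and 6 of 7 rose in wild types on tamoxifen and 3 of 7 in placebo mutants. For tamoxifen in mutants edgeR called 0 of the 7 (2 at an unadjusted p under 0.05, 1 by DESeq2). Their part in the results of the 9 genes was not tested, and a change in the number of cells of a type and a change in RNA per cell cannot be told apart in whole muscle.

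Markers of other cells were read the same way, with means over placebo wild types, tamoxifen wild types, placebo mutants and tamoxifen mutants of the Dnm2 cohort. Against placebo wild types, 27.7% of all genes were called in tamoxifen wild types, 21.9% in placebo mutants and 28.9% in tamoxifen mutants. Muscle fiber markers summed to 115037, 84081, 95013 and 83108 CPM, and 1 of 5 fell in placebo mutants and 3 of 5 in tamoxifen mutants against placebo wild types. Fibroblast markers (6 genes, Lum the most abundant in all but the first group, where it was Ly6a) summed to 194, 843, 313 and 626 CPM, and 2 of 6 rose in tamoxifen wild types and 2 in placebo mutants. Lum alone had means of 656 CPM in tamoxifen wild types, 88.3 CPM in placebo mutants and 426 CPM in tamoxifen mutants. Macrophage markers (6 genes, led by Lyz2) summed to 85.0, 236, 194 and 206 CPM, with 5 of 6 higher in tamoxifen wild types and 2 in placebo mutants. Cartilage markers (6 genes, 5 tested) summed to 5.56, 42.4, 8.03 and 22.2 CPM, with 3 and 2 of 5 higher. Endothelial markers (5 genes, led by Cdh5) summed to 530, 387, 270 and 348 CPM and smooth muscle and pericyte markers (5 genes, led by Rgs5) to 1016, 837, 496 and 640 CPM, and in placebo mutants 3 of 5 in each list fell and 1 of the latter rose. Platelet markers (4 genes, 3 tested, led by Pf4) summed to 4.53 to 7.06, 4.83 to 6.99, 7.32 to 10.99 and 6.14 to 8.69 CPM, so that all placebo mutants lay above all placebo wild types, and 1 of 3 rose in placebo mutants and 1 in tamoxifen wild types. Neutrophil and marrow markers, led by S100a9 (5 genes), reached at most 3.81 CPM in a mouse of the cohort. The counts for fibroblast and platelet markers, and for muscle fiber and macrophage markers in placebo mutants, lay close to the share of all genes. The part of all these markers in the results was likewise not tested.

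**Figure D3:**
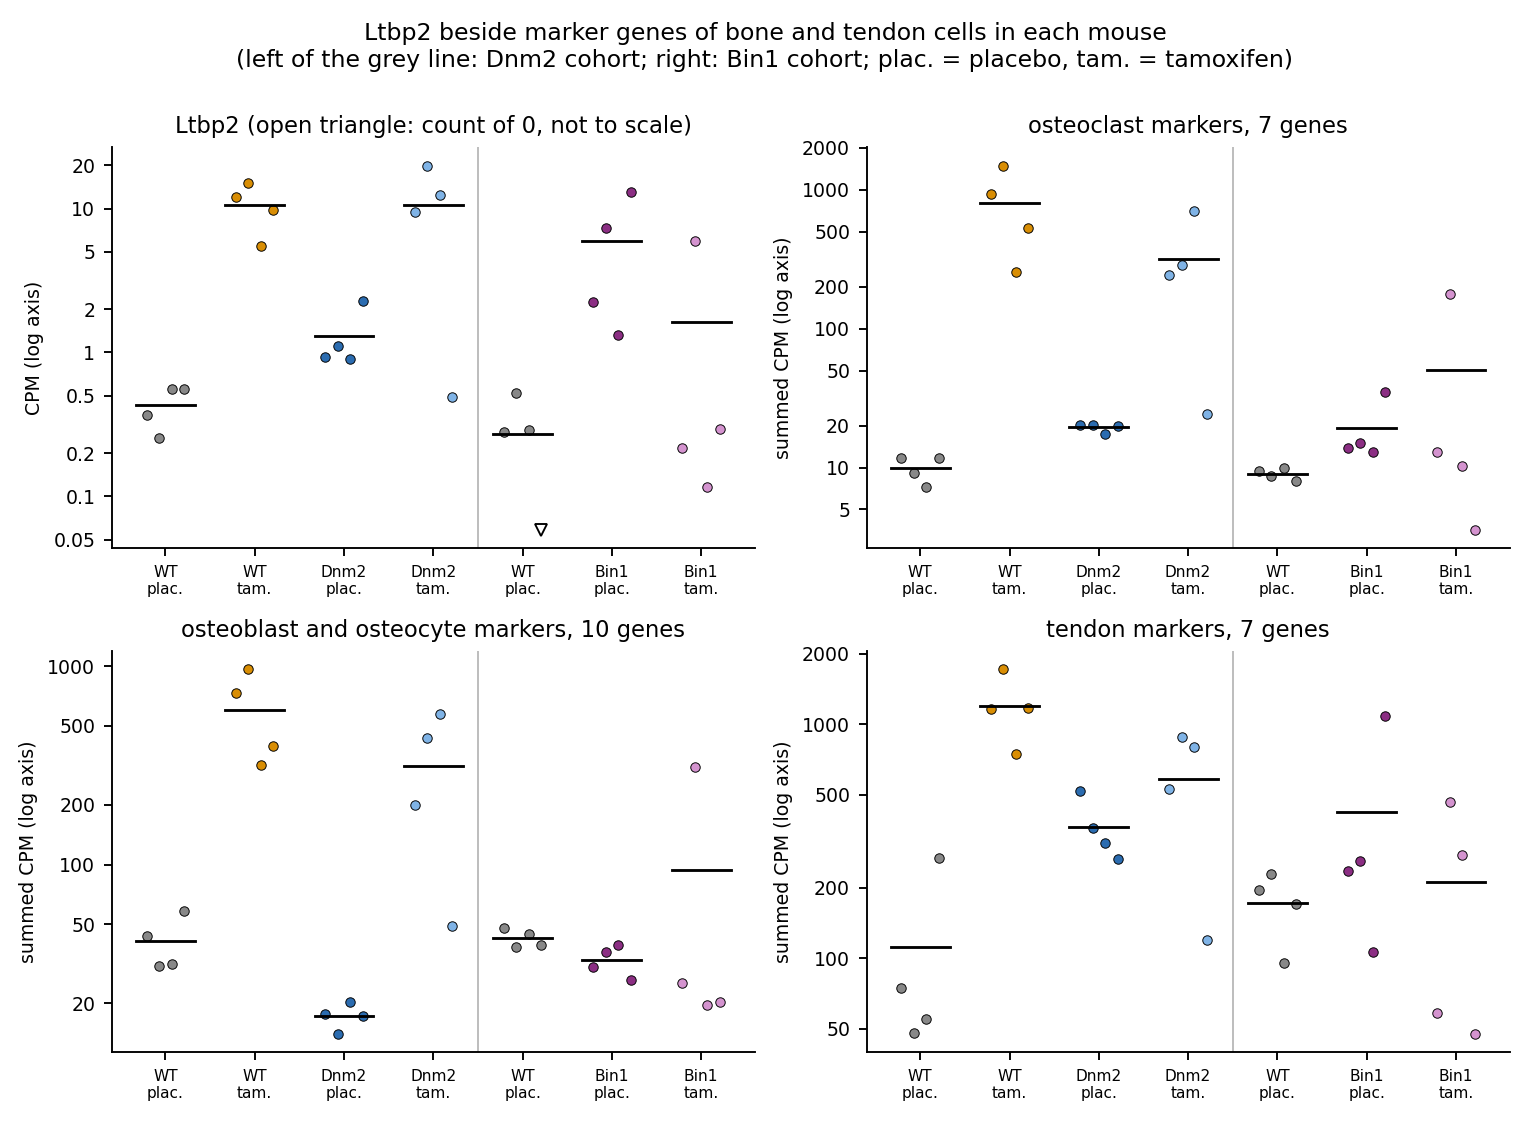
CPM of Ltbp2 and summed CPM of osteoclast, osteoblast and osteocyte, and tendon markers on log axes, with a point for each mouse, a line for each group mean and the 7 groups on the horizontal axis. Tamoxifen Dnm2 mutant 4 is the lowest of its group in all 4 panels and tamoxifen Bin1 knockout 2 is the highest of its group in all 4.

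Ltbp3 (ENSMUSG00000024940), a latent TGF-beta binder with known roles in the skeleton, was lowest in placebo wild types. Its values were 65.0, 49.9, 47.8 and 58.4 CPM in placebo wild types, 90.3, 99.1, 75.9 and 76.9 CPM in placebo mutants and 77.2, 111, 79.2 and 103 CPM in wild types on tamoxifen. Mutants on tamoxifen had 105, 119, 119 and 90.8 CPM. All 12 mice with the mutation, the drug or both lay above the 4 placebo wild types. Ltbp3 rose by 0.63 in placebo mutants (SE 0.14, edgeR adjusted p = 0.00651), by 0.74 in wild types on tamoxifen (SE 0.14, edgeR adjusted p = 0.00183) and by 0.97 in tamoxifen mutants against placebo wild types (SE 0.14, edgeR adjusted p = 3.56e-04), and these calls held whichever mouse was omitted. Ltbp4 (ENSMUSG00000040488), which supports elastic fibers and whose gene modifies muscular dystrophy in mice, ranged from 85.9 to 227 CPM in the cohort and its log2 differences in the 6 comparisons of that cohort ran from -0.25 to 0.51, none past the threshold of edgeR or DESeq2.

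Ccn2 (ENSMUSG00000019997) was the member with the largest rise in placebo mutants. It measured 23.4, 16.1, 15.97 and 13.0 CPM in placebo wild types and 89.2, 128, 34.1 and 49.3 CPM in placebo mutants. Wild types on tamoxifen had 51.3, 85.5, 33.0 and 46.0 CPM and mutants on tamoxifen had 39.3, 56.4, 27.2 and 90.1 CPM. All 12 of these values lay above every placebo wild type, and the placebo mutants spread over a wide range. Tamoxifen mutant 4, low for the ligands and for Ltbp1 and Ltbp2, was the highest of its group for Ccn2. The rise was 2.13 in placebo mutants (SE 0.43, edgeR adjusted p = 0.00349), 1.65 in wild types on tamoxifen (SE 0.43, edgeR adjusted p = 0.0107) and 1.63 in tamoxifen mutants against placebo wild types (SE 0.43, edgeR adjusted p = 0.0110), and each call held whichever of the 16 mice was omitted. Within mutants, tamoxifen gave a difference of -0.50 (SE 0.42, edgeR adjusted p = 0.488), with a 95% interval from -1.38 to 0.39.

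Ccn1 (ENSMUSG00000028195), which encodes a secreted integrin ligand, measured 34.4, 56.2, 24.0 and 23.1 CPM in placebo wild types, 66.9, 77.3, 70.3 and 48.8 CPM in placebo mutants, 105, 130, 76.8 and 99.7 CPM in wild types on tamoxifen and 98.9, 137, 71.2 and 81.5 CPM in mutants on tamoxifen. Both groups on tamoxifen lay above all placebo wild types, whereas placebo mutant 4 fell below placebo wild type 2. Ccn1 rose by 1.57 in wild types on tamoxifen (SE 0.28, edgeR adjusted p = 0.00113), by 1.49 in tamoxifen mutants against placebo wild types (SE 0.28, edgeR adjusted p = 0.00155) and by 0.93 in placebo mutants (SE 0.27, edgeR adjusted p = 0.0257). The last call was lost without placebo wild type 1, 3 or 4 or without placebo mutant 2, with log2 fold changes of 0.93, 0.82, 0.78 and 0.84 and edgeR adjusted p of 0.0544, 0.0716, 0.0636 and 0.0669 (0.00377 to 0.0716 over the 16 omissions). It was also lost without a low-count filter (edgeR adjusted p = 0.0777) and with only the groups compared (0.0501).

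Mutants and wild types were also compared with both on tamoxifen. Of the 9 genes, edgeR called 0 (1 at an unadjusted p under 0.05, 0 by DESeq2), where 2.70% of all genes were called, and the median was -0.02 for the members and for all genes. The genes called over all numbered 417 with every mouse and 182 to 623 over the 16 omissions. Whether tamoxifen acted differently in mutants and in wild types was tested as an interaction. By edgeR 0 of the 9 genes passed (5 at an unadjusted p under 0.05, 2 by DESeq2), where 0.259% of all genes were called. The median log2 difference of the members was -1.09 against -0.01 for all genes, and 8 of the 9 differences were below 0. Those of Ltbp1 and Ccn2 were -1.76 (SE 0.46, edgeR adjusted p = 0.134) and -2.15 (SE 0.59, edgeR adjusted p = 0.160). DESeq2 called both (adjusted p = 0.0167 and 0.0178), and so did edgeR without placebo mutant 3 (adjusted p = 0.0365 and 0.0490; over the 16 omissions, 0.0365 to 0.296 and 0.0490 to 0.338). Over all genes, DESeq2 called 327 in this interaction and edgeR 40, or 1 to 293 when each mouse was omitted.

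In the Bin1 cohort Ccn2 was the called member. Placebo wild-type mice 5 to 8 had 19.4, 12.2, 19.0 and 17.1 CPM, placebo knockouts had 42.6, 45.2, 27.6 and 99.8 CPM and knockouts on tamoxifen had 25.0, 39.9, 37.4 and 39.9 CPM. Neither knockout group overlapped with the wild types. Ccn2 rose by 1.67 in placebo knockouts (SE 0.35, edgeR adjusted p = 0.0365). Omitting each of the 12 mice in turn lost this call 6 times, without any 1 of the 4 wild types and without placebo knockout 1 or 2, where the log2 fold change ran from 1.54 to 1.75 and the edgeR adjusted p from 0.0648 to 0.121 (0.00726 to 0.121 over all 12). It was also lost with only the groups compared (edgeR adjusted p = 0.0542) and without a low-count filter (0.0666). Knockouts on tamoxifen were above wild type by 1.07, short of the threshold (SE 0.35, edgeR adjusted p = 0.194, DESeq2 adjusted p = 0.0175) but past it by edgeR with only the groups compared (adjusted p = 0.0214) and without placebo knockout 4 (1.06, adjusted p = 0.0265; 0.0265 to 0.386 over the 12 omissions).

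The ligands and binders of the Bin1 cohort differed less between groups, apart from Ltbp2. That gene had 0.280, 0.522 and 0.288 CPM in wild-type mice 5 to 7 and a count of 0 in mouse 8, which allows up to 0.0904 CPM (3 counts, for counting error alone). Placebo knockouts had 2.25, 7.31, 1.33 and 13.1 CPM, all above every wild type, while knockouts on tamoxifen had 0.218, 0.116 and 0.292 CPM in mice 1, 3 and 4 and 5.91 CPM in mouse 2. The difference between placebo knockouts and wild types was 4.19 (SE 1.43, edgeR adjusted p = 0.121, DESeq2 adjusted p = 0.0174), and it passed by edgeR without tamoxifen knockout 2, a mouse outside the comparison (4.18, adjusted p = 0.0242; with only the groups compared 0.0399; 0.0242 to 0.299 over the 12 omissions). Osteoclast markers summed to 13.0 to 34.7 CPM in placebo knockouts, each above all wild types (8.04 to 9.95 CPM), but most of this was Ctsk (means of 14.5 and 6.46 CPM, short of the threshold), and the 1 marker called of 6 tested, Calcr, fell by 2.75. Osteoblast and osteocyte markers had means of 33.0 and 42.5 CPM, and Ibsp, Bglap2, Mepe and Sost were at 0 in all 4 knockouts. Of these, Bglap2 and Mepe were also at 0 in all 4 wild types. Knockout 4, with the highest Ltbp2, also had the highest osteoclast and tendon sums of its group (34.7 and 1084 CPM), whose part in the result was not tested. Ltbp3 had 134, 118, 89.2 and 140 CPM in placebo knockouts against 78.9, 87.8, 100.2 and 72.8 CPM in wild types, a difference of 0.50 (SE 0.14, edgeR adjusted p = 0.0640, DESeq2 adjusted p = 0.0224) that passed by edgeR without placebo knockout 3 (0.62, adjusted p = 0.0132) or tamoxifen knockout 2 (0.50, adjusted p = 0.0493), without a low-count filter (0.0389) or with only the groups compared (0.0429; 0.0132 to 0.208 over the 12 omissions). Tgfb1 was higher in all 4 placebo knockouts, at 11.1 to 17.7 CPM, than in wild types, at 7.53 to 9.87 CPM, with a difference of 0.63 (SE 0.31, edgeR adjusted p = 0.270) that passed with only the groups compared (adjusted p = 0.0274). Tgfb2, Tgfb3, Ltbp1, Ltbp4 and Ccn1 differed by 0.04 to 0.31.

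The result of tamoxifen in Bin1 knockouts turned on 1 library. With all mice, edgeR called 0 of the 9 genes between tamoxifen and placebo knockouts (3 at an unadjusted p under 0.05, 1 by DESeq2, Ltbp3), where 3.13% of all genes were called. The median of the members was -0.43 against 0.00 for all genes, and 8 of 9 differences were below 0. Without tamoxifen knockout 2, the mouse with raised bone markers, 5 members passed and all were lower on tamoxifen, in a fit that called 1253 genes in all, against 464 with every mouse. They were Tgfb1 (-0.85, edgeR adjusted p = 0.0371), Tgfb2 (-0.62, adjusted p = 0.0218), Ltbp1 (-0.68, adjusted p = 0.0173), Ltbp2 (-4.46, adjusted p = 0.0242) and Ltbp3 (-0.51, adjusted p = 0.0477). With that mouse their differences were -0.43, -0.41, -0.21, -1.80 and -0.46, at edgeR adjusted p from 0.0857 to 0.707 (lowest and highest over the 12 omissions, 0.0173 and 0.970). Ltbp3 also passed by edgeR without placebo knockout 3 (-0.58, adjusted p = 0.0239) and with scaling by library size alone (-0.62, adjusted p = 0.0480).

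Markers of other cells were also summed in the groups of the Bin1 cohort, and only platelet markers are given with a test. Of all genes, 2.61% were called in placebo knockouts against wild types and 3.13% for tamoxifen in knockouts. Macrophage markers, led by Lyz2, summed to 145 to 282 CPM in placebo knockouts, 49.5 to 75.3 CPM in wild types and 163, 171, 56.3 and 66.1 CPM in tamoxifen knockouts, and fibroblast markers to means of 390, 150 and 203 CPM. Platelet markers, led by Pf4, summed to 10.7 to 12.8 CPM in placebo knockouts, above every wild type (3.39 to 4.98 CPM) and every tamoxifen knockout (7.76, 5.19, 2.75 and 3.62 CPM). Of the 3 tested, edgeR called 0 in placebo knockouts against wild types and 0 for tamoxifen in knockouts (in each, 3 at an unadjusted p under 0.05 and 3 by DESeq2). Endothelial markers had means of 415, 512 and 333 CPM and smooth muscle and pericyte markers of 589.6, 664 and 502 CPM in placebo knockouts, wild types and tamoxifen knockouts. Muscle fiber markers summed to 72526 to 106066 CPM in placebo knockouts, 104126 to 127137 CPM in wild types and 120417, 91379, 148509 and 131245 CPM in tamoxifen knockouts 1 to 4, of which mouse 2 lay within the placebo range. Their part in the differences was not tested.

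Against placebo wild types, knockouts on tamoxifen had 0 of 9 members called by edgeR (3 at an unadjusted p under 0.05, 1 by DESeq2, Ccn2), where 0.849% of all genes were called, and the median was 0.09 against 0.03. The genes called over all numbered 126 with every mouse and 42 to 266 over the 12 omissions. The difference between the models was tested in a fit of all 28 mice, where model and library protocol cannot be told apart. For the effect of genotype under placebo, edgeR called 0 of 9 members (2 at an unadjusted p under 0.05, 0 by DESeq2), where 0.312% of 16036 genes were called. The genes called over all numbered 50 with every mouse and 13 to 154 over the 28 omissions. For the effect of tamoxifen in mutants, 2 of 9 members were called (1.71% of all genes) by edgeR and 3 by DESeq2. Over all genes, edgeR called 274 and DESeq2 1269. Tgfb3 differed between the models by 0.98 (SE 0.24, edgeR adjusted p = 0.0446) and Ltbp3 by 0.84 (SE 0.20, edgeR adjusted p = 0.0444). Tamoxifen gave 0.63 for Tgfb3 and 0.34 for Ltbp3 in Dnm2 mutants and -0.31 and -0.46 in Bin1 knockouts. These calls were sensitive to single mice and held in 9 and 12 of 28 omissions, with edgeR adjusted p from 0.00501 to 0.110 and from 0.0101 to 0.106, the highest of each without tamoxifen Dnm2 mutant 2 (0.87 and 0.79). Neither passed without a low-count filter (edgeR adjusted p = 0.0580 and 0.0522), with only the groups compared (0.124 and 0.113) or with those groups and a replicate block (0.255 for each). Ltbp2 differed by 4.81 (SE 1.37, edgeR adjusted p = 0.0564, DESeq2 adjusted p = 0.0177), which passed by edgeR without tamoxifen Dnm2 mutant 4 (5.20, adjusted p = 0.0140) or tamoxifen Bin1 knockout 2 (7.49, adjusted p = 0.00170), and without the latter mouse Ltbp4 also passed (1.17, adjusted p = 0.0429).

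Set in order, the group means of the Dnm2 cohort put placebo wild types lowest for every member except Ltbp4. Wild types on tamoxifen stood highest for Tgfb2, Tgfb3, Ltbp1 and Ccn1, tamoxifen mutants for Tgfb1, Ltbp2, Ltbp3 and Ltbp4, and placebo mutants for Ccn2. Of groups next to each other in this order, the 2 on tamoxifen lay within the larger of their SDs for Tgfb1, Tgfb3, Ltbp2, Ltbp3, Ccn1 and Ccn2, the 2 on placebo for Tgfb3, the 2 mutant groups for Tgfb2 and Ltbp1, tamoxifen wild types and placebo mutants for Ltbp1, Ltbp3 and Ccn2, and all groups for Ltbp4. The ratio of the highest to the lowest group mean was 24.5 for Ltbp2, 4.39 for Ccn2, 3.27 for Ltbp1, 3.10 for Tgfb1, 2.99 for Ccn1, 2.21 for Tgfb2, 1.99 for Tgfb3, 1.96 for Ltbp3 and 1.30 for Ltbp4. In the Bin1 cohort placebo knockouts stood highest for every member except Ccn1, with ratios from 1.24 for Tgfb3 and Ltbp1 to 22.0 for Ltbp2. The last leans on placebo knockout 4, with 13.1 CPM of Ltbp2 against 1.33 to 7.31 CPM in the others. Its lowest group holds wild type 8, with a count of 0. Knockouts on tamoxifen lay within the larger SD of a group next to them for every member except Tgfb3 and Ccn1.

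Levels of different genes were compared per kilobase of exon. In placebo wild types of the Dnm2 cohort, Ltbp4 (23.9 ± 8.67 CPM per kb; SD, n = 4), Ccn1 (17.0 ± 7.64) and Tgfb3 (12.7 ± 1.94) were the most abundant members, and Ltbp2 (0.0529 ± 0.0182) the least. Tgfb3 was the leading ligand in every group, at 12.7 to 25.2 CPM per kb against 3.23 to 9.58 for Tgfb2 and 1.40 to 4.34 for Tgfb1. Ltbp2 reached a mean of 1.30 CPM per kb in mutants on tamoxifen, still below the level of each other member in that group. Other genes lie on the opposite strand within members that include Tgfb2, Tgfb3, Ltbp2 and Ccn2, and since it is not given whether reads were counted by strand, reads of these genes cannot be told apart from theirs.

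Other genes of the pathway were read from 6 lists with 52 genes, of which 51 were tested. These lists too were chosen with earlier results of these data known. In placebo Dnm2 mutants 10 rose and 4 fell (27.5% called, against 21.9% of all genes), with a median of 0.33. The calls for receptors (1 of 5), SMADs (2 of 11), matrix and contractile targets (2 of 11 higher and 1 lower) and YAP/TAZ-TEAD genes (2 of 9) lay close to that share of all genes. Among activators and microfibril proteins 4 of 12 rose and 2 fell. Itgav, the integrin subunit that releases latent TGF-beta, rose by 1.32 (SE 0.18, edgeR adjusted p = 1.78e-04) and Fbn2, a fibrillin, by 2.36, while Lrrc32 fell by 0.91 and Itgb5 fell by 0.63. Of 5 receptors, Tgfbr1 rose by 0.62 (SE 0.10, edgeR adjusted p = 6.28e-04), and Tgfbr2 and Tgfbr3 differed by 0.40 and 0.17 without passing. Of 11 SMADs and their co-repressors, Tgif1 rose by 1.04 and Smad3 fell by 0.62. Among 11 matrix and contractile targets of TGF-beta, Timp1 rose by 4.69 (SE 0.67, edgeR adjusted p = 2.56e-04), Tgfbi rose by 0.57 and Acta2 fell by 0.75. The rest of the 11 did not pass. Tead4 and Axl, 2 of 9 YAP/TAZ-TEAD genes, rose by 1.71 and 0.63. Leaving out each mouse gave 10 to 23 calls and kept 8 of the 14 throughout. Of the genes named, Tgfbi held in 10 of 16 omissions, Lrrc32 in 12, Itgb5 in 13, and Acta2 and Axl in 14.

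With tamoxifen in wild types, 25 of the 51 pathway genes were called, all higher (49.0%, against 27.7% of all genes), with a median of 0.57. Of the matrix targets 8 of 11 were higher, with a median of 3.59. Mean Cthrc1 was 0.449 CPM on placebo and 54.3 CPM on tamoxifen (a rise of 6.74, SE 0.76, edgeR adjusted p = 1.77e-04), and Postn, which encodes periostin, had 17.8 and 1766 CPM (6.62, SE 0.78, edgeR adjusted p = 2.13e-04). Of the other CCN genes all 3 tested rose, with a median of 4.29, among them Ccn4 by 6.34 and Ccn5 by 4.29. Of the activators and microfibril proteins 7 of 12 rose, led by Fbn2 (3.86) and Itgb3 (3.61), and of receptors 2 of 5 (Tgfbr1 0.82 and Tgfbr2 0.81, with Tgfbr3 at 0.40 not passing). Of SMADs and co-repressors 3 of 11 rose (Pmepa1 1.78 and Tgif1 0.94 the largest) and of YAP/TAZ-TEAD genes 2 of 9 (Amotl2 0.93 and Axl 0.49). The SMAD and YAP/TAZ-TEAD counts lay close to the share of all genes. Leaving out each mouse kept 21 of the 25 throughout, while Amotl2 held in 13 of 16 omissions and Axl in 6. In Dnm2 mutants tamoxifen gave 14 calls of 51, all higher (27.5%, against 8.27% of all genes), with Cthrc1 (5.50), Postn (4.02), Ccn5 (3.92) and Ccn4 (3.35) ahead. Itgb3 (1.95), Emilin1 (1.44), Smad3 (0.64), Ski (0.46) and Tgfbr1 (0.37) also rose, while Tgfbr2 and Tgfbr3 differed by 0.30 and -0.06 without passing. The number of genes called here turned on single mice, from 1277 with every mouse to 368 without tamoxifen mutant 3 and 2562 without tamoxifen mutant 4 over all genes, and in the pathway from 14 to 8 without placebo mutant 2 and 20 without tamoxifen mutant 4. Cthrc1, Postn, Ccn5 and Ccn4 held in all 16 omissions, Smad3 in 15, Tgfbr1 in 10, Ski in 9, Emilin1 in 7 and Itgb3 in 3.

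Tamoxifen mutants had 23 pathway genes called against placebo wild types, all higher (45.1%, against 28.9% of all genes). Among them were Cthrc1 (5.71), Postn (5.43), Ccn4 (4.83), Ccn5 (4.33), Fbn2 (3.48), Itgb3 (2.49), Pmepa1 (1.419), Tgif1 (1.07), Tead4 (1.05), Tgfbr1 (0.996), Tgfbr2 (0.71) and Axl (0.52), while Tgfbr3 differed by 0.10 without passing. Of these, Tgfbr2 held in 15 of 16 omissions, Axl in 10 and the others in each. Between the genotypes on tamoxifen 1 gene differed, Tead4 (1.06, SE 0.27, edgeR adjusted p = 0.0481), and in the interaction 1 gene did, Timp1 (-5.13, SE 0.85, edgeR adjusted p = 0.0248), calls that held in 5 and 6 of 16 omissions. In placebo Bin1 knockouts 4 pathway genes rose, namely Tead4 (1.57), Ccn3 (1.43), Axl (1.32) and Itgav (0.67), which is 7.84% against 2.61% of all genes. They held in 10, 7, 5 and 5 of 12 omissions, and 0 to 8 pathway genes passed by edgeR over these, the fewest without wild type 6 or 8.

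Tamoxifen in Bin1 knockouts lowered 3 pathway genes, Tead4 (-1.70, SE 0.26, edgeR adjusted p = 0.00588), Ccn3 (-1.57) and Axl (-1.29), which is 5.88% against 3.13% of all genes. These held in 12, 12 and 8 of 12 omissions, over which 2 to 11 pathway genes passed, the most without tamoxifen knockout 2. The placebo knockouts also serve in the comparison with wild types. In both Bin1 comparisons Tgfbr1, Tgfbr2 and Tgfbr3 did not pass by edgeR, with differences of 0.23, 0.57 and 0.13 for the knockout and 0.10, -0.76 and 0.11 for tamoxifen. The log2 difference with tamoxifen was higher in Dnm2 mutants than in Bin1 knockouts for 5 pathway genes, Fn1 (by 3.18), Fbn1 (2.55), Ccn3 (2.55), Axl (1.22) and Itgb5 (0.89), which is 9.80% against 1.71% of all genes. For Axl this reflects -0.11 in Dnm2 mutants and -1.29 in knockouts, for Ccn3 0.94 and -1.57, for Fbn1 0.68 and -1.83, for Fn1 1.61 and -1.50 and for Itgb5 1.02 and 0.17. Of 28 omissions, Ccn3 held in 27, Fbn1 in 23, Axl in 5, Fn1 in 3 and Itgb5 in 2, and none of the 5 held without tamoxifen Dnm2 mutant 2, where 6 genes in all were called. Without tamoxifen Bin1 knockout 2, 24 pathway genes passed among 2195 in all. Of the 51 genes, edgeR called 0 between tamoxifen Bin1 knockouts and placebo wild types (8 at an unadjusted p under 0.05, 1 by DESeq2) and 0 for the difference between models in the effect of genotype (10 at an unadjusted p under 0.05, 0 by DESeq2). Tgfbr1, Tgfbr2 and Tgfbr3 differed by 0.18, -0.10 and -0.30 between genotypes on tamoxifen, by -0.44, -0.50 and -0.47 in the interaction, by 0.33, -0.20 and 0.25 between tamoxifen Bin1 knockouts and wild types, and between models by 0.39, -0.17 and 0.03 for genotype and 0.30, 1.11 and -0.14 for tamoxifen, none passing by edgeR.

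Genes whose level was most like that of a member were taken from 14572 genes by the smaller of Pearson's r over the 16 mice of the Dnm2 cohort and over the 12 mice of the Bin1 cohort, on log2 CPM. These values describe the mice, which fall into groups, and carry no test. Tgfb1 was followed most closely by Pcolce (smaller r 0.948), which encodes an enhancer of procollagen processing, then by Dap (0.940) and Pdlim2 (0.938). Ltbp2 was followed by Soat1 (0.924) and Ecm1 (0.910), and Ccn2 by the metallothionein genes Mt2 (0.876) and Mt1 (0.825) and by S100a10 (0.819). For Tgfb2 these were Car13, Arsj and Pdgfc (0.790 to 0.802), for Tgfb3 Abr, Bace2 and Faf2 (0.853 to 0.871), for Ltbp1 Samd14, Fzd1 and Basp1 (0.850 to 0.855) and for Ltbp3 Emp2, Cep170b and Ncam1 (0.835 to 0.866). For Ltbp4 they were Caskin2, Kif26a and Map3k11 (0.845 to 0.857) and for Ccn1 Fuca1, Plaur and Slc35e3 (0.740 to 0.769).

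Promoters of the members were searched for the letters read by the factors that act downstream of TGF-beta and of mechanical load. RefSeq promoter sequences (build GRCm38.p6) were matched for 7 members, with 10 start sites in all, and the 250 bases before each start were searched on both strands. The motifs were GGAATG for TEAD, CAGACA for SMAD, TGANTCA for AP-1 and the CArG box of the serum response factor. Of 32841 mouse promoters of this length 12.6% held the TEAD motif, 17.1% the SMAD motif, 6.75% the AP-1 motif and 1.47% the CArG box. Among the members' 10 promoters, 1 held the TEAD motif, 2 the SMAD motif and 0 the others. The 3 with a match are shown 5′ to 3′ on the strand of the gene, with the matched letters in capitals. These lie at chr3:145649986-145650235 (minus strand) for Ccn1, with a TEAD motif, at chr17:75178531-75178780 (plus strand) for the downstream start of Ltbp1, with 2 SMAD motifs, and at chr1:186705990-186706239 (minus strand) for Tgfb2, with 1 SMAD motif. The promoters of Tgfb1, Ltbp2 and Ltbp3, which rose in wild types on tamoxifen as did these 3 genes, held none of the 4 motifs. A match of letters is a description and not a bound site.
Ccn1: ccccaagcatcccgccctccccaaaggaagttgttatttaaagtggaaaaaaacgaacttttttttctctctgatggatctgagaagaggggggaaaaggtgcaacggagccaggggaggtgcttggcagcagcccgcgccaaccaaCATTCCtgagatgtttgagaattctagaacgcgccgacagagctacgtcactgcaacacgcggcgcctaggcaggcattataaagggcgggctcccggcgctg
Ltbp1: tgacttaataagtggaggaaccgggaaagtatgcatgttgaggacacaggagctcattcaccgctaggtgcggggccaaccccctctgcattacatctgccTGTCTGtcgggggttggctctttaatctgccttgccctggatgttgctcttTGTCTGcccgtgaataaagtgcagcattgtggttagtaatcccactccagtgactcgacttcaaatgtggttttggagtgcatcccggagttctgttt
Tgfb2: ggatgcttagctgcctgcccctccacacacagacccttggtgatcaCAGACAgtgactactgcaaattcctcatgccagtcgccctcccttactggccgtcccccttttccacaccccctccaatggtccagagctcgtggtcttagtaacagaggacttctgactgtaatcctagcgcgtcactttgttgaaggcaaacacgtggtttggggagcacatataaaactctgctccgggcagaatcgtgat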

How the data were processed

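Counts per gene were used as deposited; per the labels, the authors made them with bcl2fastq 2.20.0.422, cutadapt 1.10, Bowtie 1.2.2, STAR 2.5.3 and HTSeq 0.6.1p1, whose order and settings were not given. In the counts of the Bin1 cohort, 4 lines that are not genes held 22.0% to 30.8% of the counts (median 23.9%) and were left out. Each cohort was fitted with edgeR 4.0.16 (TMM, filterByExpr, robust quasi-likelihood test, prior count 2, Benjamini-Hochberg over all genes tested), with 1 coefficient per group. Differences between models came from a fit of all 28 mice on the 55359 identifiers in both tables. SE is the size of the unshrunken log2 fold change over the square root of F, and intervals are 95%. DESeq2 1.42.0 was the other tool. Gene lengths and overlaps came from GENCODE M21, which matched 52083 identifiers. The members, lists and rules were chosen with earlier results of these data known. Pathway genes named per list and comparison were up to 2 called genes in each direction with the largest log2 fold changes, and Tgfbr1, Tgfbr2 and Tgfbr3 in each comparison. Some genes that these rules name are not reported here. Cell markers filled 11 lists with 66 genes. RefSeq promoters were found for 7 members, and Tgfb3 and Ccn2 had none in the reference.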

Additional observations from a re-analysis of the deposited data

Results flagged for a closer look

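Some values lay far from the other 3 mice of their group, which chance gives in about 1 of 20 groups of 4; here it was 14 of 140 groups (63 of members and 77 of marker sums). Among members these were Tgfb1 in placebo Bin1 knockout 4 (17.7 CPM, others 11.1 to 12.1), Tgfb2 in Bin1-cohort wild type 5 (28.1, others 22.8 to 23.1), Ltbp2 in placebo Dnm2 mutant 4 (2.30, others 0.905 to 1.104) and in tamoxifen Bin1 knockout 2 (5.91, others 0.116 to 0.292), and Ccn2 in tamoxifen Bin1 knockout 1 (25.0, others 37.4 to 39.9). Among marker sums they were, in placebo wild type 4 of the Dnm2 cohort, tendon (269, others 48.0 to 74.7) and smooth muscle and pericyte (1124, others 972 to 990.4), in tamoxifen wild type 3, neutrophil and marrow (3.81, others 0.311 to 0.442), and in placebo Bin1 knockout 4, tendon (1084, others 107 to 259.5) and osteoclast (34.7, others 13.0 to 15.2). In placebo Bin1 knockout 3 endothelial markers stood apart (511, others 376 to 393). In tamoxifen Bin1 knockout 2 these were osteoclast (176, others 3.55 to 12.9) and osteoblast and osteocyte markers (310.1, others 19.5 to 25.4), and in mouse 4 neutrophil and marrow markers (11.3, others 0.218 to 0.303). The effect of tamoxifen differed between Dnm2 mutants and Bin1 knockouts for Tgfb3 (0.98) and Ltbp3 (0.84), tested in edgeR as the difference itself. No cause was tested for any of these.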

How the results depend on the processing

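Of the 99 differences of a member in a comparison, edgeR called 24. All alternatives and omissions of a mouse kept 17 of these, none of the 24 changed sign, 17 of the 75 others passed somewhere, and 19 of the 75 changed sign. The 8 calls for tamoxifen in wild types held wherever the gene was tested. Members called were, by DESeq2, 2 for tamoxifen in Dnm2 mutants, 2 in the interaction, 3 for the Bin1 knockout, 1 for tamoxifen in Bin1 knockouts, 1 for tamoxifen knockouts against wild type and 3 for the model difference under tamoxifen; without a low-count filter, 3 for the Dnm2 mutation, 0 for tamoxifen in Dnm2 mutants and 0 for the difference between models under tamoxifen; with the authors' filter of more than 10 reads in 90% of samples, which drops Ltbp2, 0 for tamoxifen in Dnm2 mutants; with only the groups compared, 0 there, 5 for the Dnm2 mutation (Ltbp2 gained, Ccn1 lost), 3 for the Bin1 knockout (Tgfb1, Ltbp2 and Ltbp3 gained, Ccn2 lost), 1 for tamoxifen knockouts against wild type and 0 for the model difference; with library size alone, 1 for tamoxifen in Bin1 knockouts, 6 for the Dnm2 mutation and 8 for tamoxifen mutants against wild type (Tgfb2 gained in each of the last 2); with the replicate number as a block (replicate block, for the model difference in only the groups compared), 4 for the Dnm2 mutation, 0 for tamoxifen in Dnm2 mutants and 0 for the model difference. Pathway genes by DESeq2 were 2 between genotypes on tamoxifen, 6 in the interaction, 7 for the Bin1 knockout, 6 for tamoxifen in Bin1 knockouts, 1 for tamoxifen knockouts against wild type and 15 for the model difference under tamoxifen. Over all genes, DESeq2 called 1882, 327, 1191, 1216, 544 and 1269 in the comparisons listed above for members by DESeq2, in that order. By edgeR these numbers were 1277, 40, 388, 464, 126 and 274. Between genotypes on tamoxifen DESeq2 called 937 of 15439 genes and edgeR 417. For the other settings the number of genes called over all is not given here, so the changes in members cannot be set against it. The authors' filter was applied to the mice of this series alone, whereas the paper applied it over all of its cohorts. Except for that filter, the cause of these changes was not tested. Omitting each mouse gave 3 to 6 members for the Dnm2 mutation, 8 to 8 for tamoxifen in wild types, 0 to 2 in mutants, 6 to 8 for tamoxifen mutants against wild type, 0 to 0 between genotypes on tamoxifen by edgeR, 0 to 2 in the interaction, 0 to 3 for the Bin1 knockout, 0 to 5 for tamoxifen in knockouts, 0 to 1 for tamoxifen knockouts against wild type, and 0 to 0 and 0 to 4 for the model differences. Pathway genes, for which omissions were chosen after seeing the data, ran from 10 to 23, 22 to 27, 8 to 20, 20 to 26, 0 to 1, 0 to 5, 0 to 8, 2 to 11, 0 to 0, 0 to 0 and 0 to 24 in the same order. Genes called over all moved as well in these omissions. In that order they ran from 2034 to 3953, 2769 to 4825, 368 to 2562, 2955 to 5497, 182 to 623 and 1 to 293 in the Dnm2 cohort. They ran from 18 to 759, 160 to 1253 and 42 to 266 in the Bin1 cohort, and from 13 to 154 and 6 to 2195 for the model differences. Library size alone moved the median of all genes by 0.26, 0.27 and 0.34 for the Dnm2 mutation, tamoxifen in wild types and both, by 0.13 for the Bin1 knockout and by -0.16 for tamoxifen in knockouts. For mice with the same number in different groups, median r was 0.026 in the Dnm2 cohort (9 of 24 pairs above 0.1; other pairs 0.004, 22 of 72) and -0.050 in the Bin1 cohort (1 of 4; other pairs 0.005, 5 of 44). No paired analysis was possible because the Bin1-cohort wild types carry numbers 5 to 8, for their comparisons with knockouts. With 4 mice per group, differences short of the threshold do not show equal levels, and Ltbp2 at 7 to 36 reads in placebo wild types limits its fold changes.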
